A study of Mus musculus with 52 samples.

Results

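The 48 genes described here encode homeodomain and Pax transcription factors outside the Hox clusters. They were taken as a named list and located by mm10 annotation in the authors' table of non-redundant genes. All 48 were found, among 24263 intervals kept of that table. They fall into 6 classes by their homeodomain: 18 NK-like and 4 Hox-like genes of the Antennapedia class, 8 LIM genes, 8 TALE genes, 6 paired-type and Pax genes and 4 SINE genes. Regions were taken from the authors' tables of 8794 enhancers of mouse embryonic stem cells (mESCs) and 16576 enhancers of epiblast-like cells (EpiLCs). Each enhancer was assigned to 1 gene, the one whose transcription start site (TSS) was closest to the middle of the enhancer, and dropped where more than 50 kb separated the TSS from the enhancer's nearer end.

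Homeodomain proteins bind short AT-rich DNA motifs and set regional identity in the embryo, from the forebrain and eye to the heart, limb and gut. In pluripotent cells most of these genes are textbook targets of Polycomb repressive complex 2, which methylates lysine 27 of histone H3, and their CpG-rich promoters carry both repressive and activating marks. Acetylation of the same lysine marks active enhancers, and enhancers of developmental genes can lie far from the promoter, often in introns of neighbouring genes.

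The series holds 52 libraries of chromatin immunoprecipitation and input from C57BL6/129Sv cells, 43 of naive mESCs grown without feeders in LIF with inhibitors of GSK3 and MEK1, and 9 of EpiLCs taken 48 hours into differentiation. It sets a control line, ABE, beside clones in which lysine 27 is mutated in canonical H3 only (cK27R) or in all H3 (pK27R) and beside SUZ12KO cells, and for H3.3 it sets ABE, there labelled wild type, beside a knockout (H3-3KO) and clones labelled as that knockout with wild-type (pK27WT) or K27R (pK27R) add-back. The tables analysed here hold 0 columns with a value per library, so no comparison of mutant with control cells was made, sequencing depth is unknown, and no p-value is given. They are the regions over which the libraries were compared, and they were defined in earlier publications on other cultures, so a difference between the mESC and the EpiLC table cannot be told apart from a difference in how each was defined.

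Of the 48 genes, 14 had both mESC and EpiLC regions, and at 8 of these an mESC and an EpiLC region shared DNA. The mESC region of 7 shared sites is shown, ordered by the number of bases shared, and this side was picked after the values were seen. At En1 and Nkx2-1 only part of the mESC region is shared. The last 2 lines show regions that cover a TSS, mESC at Gbx2 and EpiLC at Six4. Each line holds the central 300 bases of the region, or all 196 bases at Otx1, 5′ to 3′ on the plus strand of mm10, read from RefSeq's GRCm38.p6. Capitals mark any match, on either strand, to the POU octamer ATGCAAAT, the octamer joined to a SOX site, the SOX core CATTGT, the ESRRB motif TCAAGGTCA, the KLF motif GGGTGTGG, the OTX motif TAATCC, the homeodomain motif TAATTA, the TATA box TATAAA or the CCAAT box. The joined motif contains most of the octamer, so the pair overlap.
Six4 mESC (chr12:73085878-73086177): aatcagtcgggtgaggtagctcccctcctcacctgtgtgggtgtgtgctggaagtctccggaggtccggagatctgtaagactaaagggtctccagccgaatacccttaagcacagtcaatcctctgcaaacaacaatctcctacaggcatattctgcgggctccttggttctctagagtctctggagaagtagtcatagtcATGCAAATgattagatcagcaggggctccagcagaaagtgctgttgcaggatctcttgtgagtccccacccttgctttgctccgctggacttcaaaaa
Nkx6-1 mESC (chr5:101713328-101713627): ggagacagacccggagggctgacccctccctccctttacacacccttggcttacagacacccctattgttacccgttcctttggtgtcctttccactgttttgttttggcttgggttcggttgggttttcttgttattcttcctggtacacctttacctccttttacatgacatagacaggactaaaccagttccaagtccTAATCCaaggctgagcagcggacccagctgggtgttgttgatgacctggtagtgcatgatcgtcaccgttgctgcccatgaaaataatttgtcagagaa
Nkx2-1 mESC (chr12:56520794-56521093): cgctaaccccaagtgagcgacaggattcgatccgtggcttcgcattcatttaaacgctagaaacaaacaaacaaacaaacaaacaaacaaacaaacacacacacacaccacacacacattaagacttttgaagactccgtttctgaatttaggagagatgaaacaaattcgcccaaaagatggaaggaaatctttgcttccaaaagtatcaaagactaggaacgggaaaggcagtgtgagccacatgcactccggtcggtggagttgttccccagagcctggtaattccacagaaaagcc
Irx6 mESC (chr8:92628927-92629226): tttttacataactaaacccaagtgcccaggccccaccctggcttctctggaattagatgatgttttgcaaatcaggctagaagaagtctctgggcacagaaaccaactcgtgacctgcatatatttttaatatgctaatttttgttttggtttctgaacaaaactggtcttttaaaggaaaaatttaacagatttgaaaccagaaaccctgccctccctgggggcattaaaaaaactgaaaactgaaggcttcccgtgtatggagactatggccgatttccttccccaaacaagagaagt
En1 mESC (chr1:120644104-120644403): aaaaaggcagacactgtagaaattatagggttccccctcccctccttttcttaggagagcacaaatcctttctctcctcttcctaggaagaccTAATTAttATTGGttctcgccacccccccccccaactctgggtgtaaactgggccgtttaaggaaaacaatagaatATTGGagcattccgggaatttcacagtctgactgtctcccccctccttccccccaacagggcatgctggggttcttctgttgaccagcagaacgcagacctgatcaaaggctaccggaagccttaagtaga
Emx1 mESC (chr6:85232107-85232406): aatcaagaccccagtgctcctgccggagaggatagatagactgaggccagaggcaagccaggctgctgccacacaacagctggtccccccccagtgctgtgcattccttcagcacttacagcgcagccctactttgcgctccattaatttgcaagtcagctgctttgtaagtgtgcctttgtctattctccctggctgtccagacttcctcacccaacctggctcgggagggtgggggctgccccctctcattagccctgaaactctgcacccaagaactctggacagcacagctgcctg
Otx1 mESC (chr11:22007880-22008075): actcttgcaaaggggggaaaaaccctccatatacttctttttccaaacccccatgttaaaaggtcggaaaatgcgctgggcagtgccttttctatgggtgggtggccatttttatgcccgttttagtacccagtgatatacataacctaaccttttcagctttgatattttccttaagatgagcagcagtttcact
Gbx2 mESC (chr1:89928887-89929186): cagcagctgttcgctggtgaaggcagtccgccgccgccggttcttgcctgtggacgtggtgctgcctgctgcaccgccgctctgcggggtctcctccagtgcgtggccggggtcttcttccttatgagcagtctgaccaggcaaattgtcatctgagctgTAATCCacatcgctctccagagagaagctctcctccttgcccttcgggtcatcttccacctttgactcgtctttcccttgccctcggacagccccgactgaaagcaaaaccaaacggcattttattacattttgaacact
Six4 EpiLC (chr12:73112090-73112389): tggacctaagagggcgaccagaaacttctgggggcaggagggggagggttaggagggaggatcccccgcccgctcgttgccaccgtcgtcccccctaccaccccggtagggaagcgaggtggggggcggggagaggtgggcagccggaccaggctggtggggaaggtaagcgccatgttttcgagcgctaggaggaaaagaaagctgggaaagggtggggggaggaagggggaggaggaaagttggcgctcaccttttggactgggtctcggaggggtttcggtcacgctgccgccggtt

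The mESC window shown for Six4 held an octamer, that for Nkx6-1 an OTX motif, and that for En1 a homeodomain motif beside 2 CCAAT boxes. The EpiLC region at En1 starts at 120644202, near the end of the homeodomain motif. Most of that motif thus lies outside the shared DNA. The mESC windows shown for Nkx2-1, Irx6, Emx1 and Otx1 held none of the 9 motifs, which does not make the whole sites free of them. The central 300 bases of the Nkx2-1 EpiLC region, all within the shared DNA, held an octamer, an OTX motif and a CCAAT box. Those of the EpiLC region held an OTX motif at Emx1, a homeodomain motif at Otx1 and none at Irx6. The Gbx2 window held an OTX motif and 17 CpG dinucleotides, and lies largely in a coding exon of that gene, its region being centred 2.14 kb from the TSS. The Six4 EpiLC window, centred 1.01 kb inside that gene, held 19 CpG dinucleotides and no motif.

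More of the 48 genes had an mESC enhancer than genes at large, while the share with an EpiLC enhancer was close to that of all genes. At least 1 mESC enhancer was tied to 23 of 48 genes (47.9%), against 18.9% of all gene intervals. At least 1 EpiLC enhancer was tied to 17 of 48 (35.4%), against 31.1% of all. The genes carried 27 mESC and 26 EpiLC regions, 0.963 EpiLC regions for each mESC region, whereas over all genes the ratio was 2.16. The median count per gene was 0 in both tables for the 48 genes and for all genes. Exactly 1 mESC region was tied to 41.7% of the 48 genes against 16.0% of all, and 2 or more to 6.25% against 2.89%. The mean was 0.562 mESC regions per gene against 0.221 over all genes, and 0.542 EpiLC regions against 0.479.

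The room around a TSS differed too. The stretch within 50 kb to which a TSS was the nearest had a median of 56.0 kb for the 48 genes and 45.1 kb for all genes. Per Mb of that stretch the 48 genes had 9.22 mESC enhancers against 4.62 for all genes, and 8.87 EpiLC enhancers against 9.99. The distance from a TSS to the nearest region, whichever gene it was tied to, ran the same way: the median was 45.2 kb to an mESC enhancer against 82.8 kb over all genes, and 53.5 kb to an EpiLC enhancer against 36.1 kb.

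**Figure D1:**
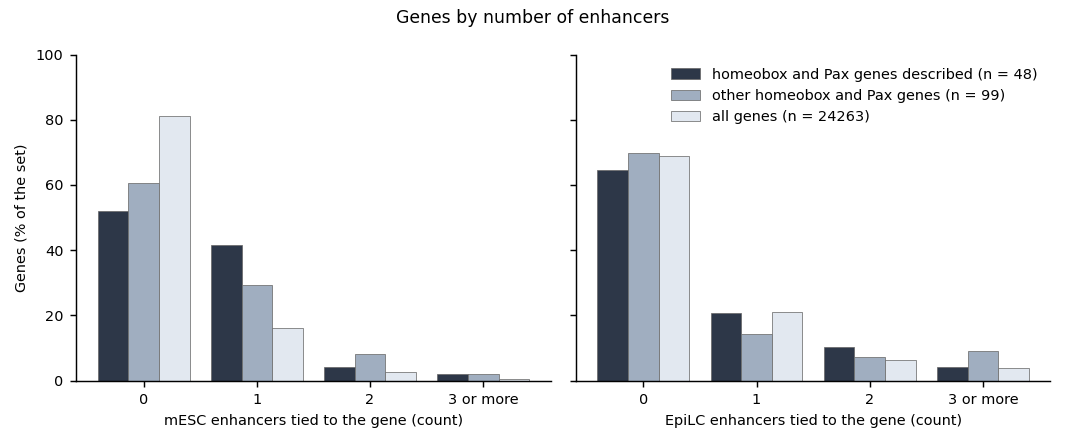
Share of genes (vertical axis, %) with 0, 1, 2 or 3 or more tied enhancers (horizontal axis), for mESC enhancers on the left and EpiLC enhancers on the right, in the 48 genes, 99 other homeobox and Pax genes and all 24263 genes. In the mESC panel the 48 genes have a lower bar at 0 and a higher bar at 1 than all genes; in the EpiLC panel the bars at 0 and 1 are of like height.

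For mESC enhancers the share was above that of all genes under each of the 9 rules tried. For EpiLC enhancers, to which the rule on the first mESC rows does not apply, it was above under most rules but not all. The 9 include the main rule. The mESC count also stayed at 23 genes with the TSS nearest to the edge, with overlong gene intervals left out, and without the first 231 mESC rows. Within 20 kb, 14 of 48 genes (29.2%) had an mESC enhancer against 13.2% of all, and within 100 kb 27 (56.2%) against 21.9%. For EpiLC enhancers the share was below that of all genes within 20 kb (11 genes, 22.9% against 25.5%) and when every TSS within 50 kb was counted (23 genes, 47.9% against 57.5%). It was above that of all genes within 100 kb (23 genes, 47.9% against 34.2%). Leaving out regions centred within 1 kb of the TSS of a gene interval removed no EpiLC region of the 48 genes. It lowered the share of all genes, giving 35.4% against 23.6%.

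**Figure D2:**
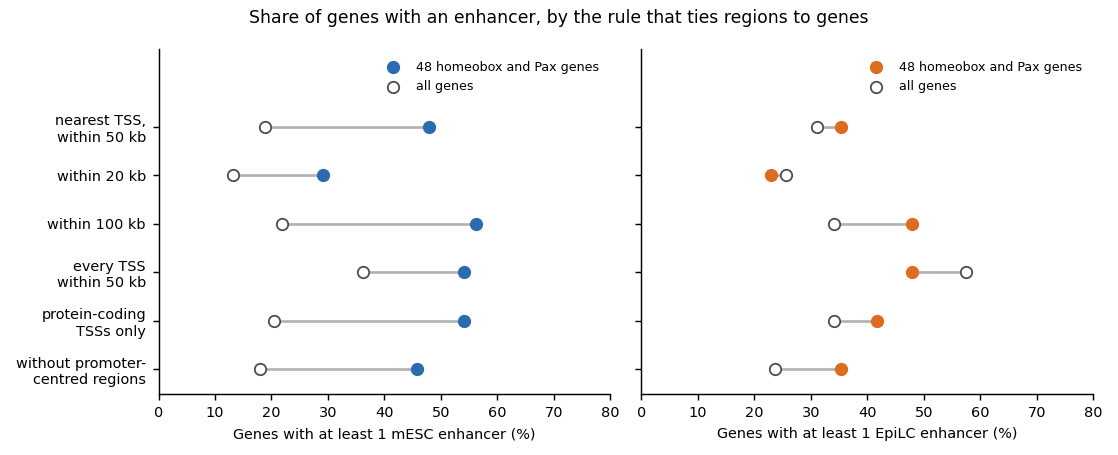
Share of genes with at least 1 mESC (left) or EpiLC (right) enhancer in % under 6 rules that tie regions to genes; filled points are the 48 genes and open points all genes under the same rule. The filled points lie to the right of the open ones in all 6 mESC rows, and to the left in 2 EpiLC rows, within 20 kb and every TSS within 50 kb.

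By pattern, 14 of 48 genes (29.2%) had enhancers in both tables against 12.1% of all genes, and 9 (18.8%) in the mESC table only against 6.74%. Only EpiLC enhancers were tied to 3 genes (6.25%) against 19% of all genes, namely Dlx3, Nkx2-5 and Vax1. No enhancer of either table was tied to 22 genes (45.8%), against 62.1% of all genes.

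**Figure D3:**
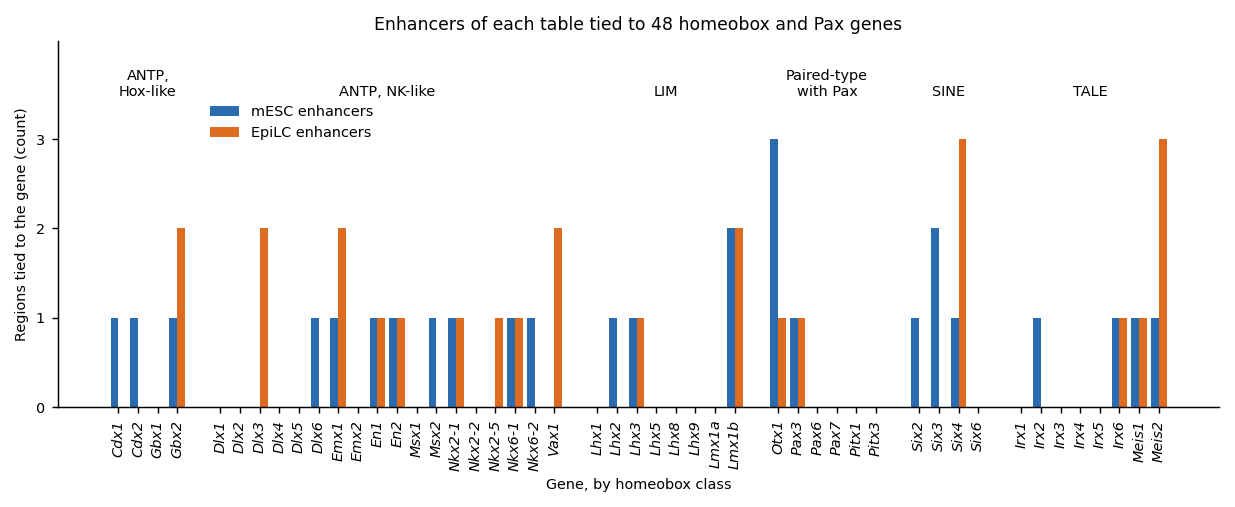
Number of regions tied to each of the 48 genes (vertical axis), in blue for mESC and orange for EpiLC enhancers, with genes in order of homeobox class. Otx1 has the highest blue bar (3), Six4 and Meis2 the highest orange bars (3 each), and 22 genes have no bar.

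In the classes below, a gene's regions are those tied to its TSS, and regions inside a gene can be tied to another. Among the paired-type and Pax genes, regions were tied to Otx1 and Pax3. Otx1, a regulator of cortex and sense organs on chromosome 11 (21994764 to 22001651), had 3 mESC enhancers, more than any other of the 48 genes. The largest, 831 bp (chr11:21988159-21988989), lay 12.7 kb from the TSS on the downstream side, and one of 485 bp (chr11:22038937-22039421) lay 37.3 kb upstream in an intron of the neighbouring gene Ehbp1. Its only EpiLC enhancer, 1175 bp (chr11:22007077-22008251) and 5.43 kb upstream, enclosed the smallest mESC region, 196 bp. Pax3, a factor of neural crest and muscle precursors on chromosome 1 (78101267 to 78197136), had 1 region of each table in its introns. The mESC region (729 bp, chr1:78167770-78168498) lay 28.6 kb and the EpiLC region (1450 bp, chr1:78181502-78182951) 14.2 kb from the TSS, with 13.0 kb between them. None was tied to Pax6, Pax7, Pitx1 and Pitx3, though 2 mESC and 2 EpiLC regions in the Pax6 interval were tied to Pax6os1.

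In the LIM class 3 of 8 genes had a region. Lmx1b, which patterns the dorsal limb and midbrain neurons, lies on chromosome 2 (33564536 to 33640511) and had 2 regions of each table, all in its own introns. The mESC regions of 747 bp (chr2:33637113-33637859) and 440 bp (chr2:33616361-33616800) lay 2.65 and 23.7 kb from the TSS, and the EpiLC regions of 925 bp (chr2:33594852-33595776) and 350 bp (chr2:33604752-33605101) lay further in, at 44.7 and 35.4 kb. Lhx3, needed for pituitary and motor neurons, had an mESC region (chr2:26194653-26195304) and an EpiLC region (chr2:26198002-26198626) on the far side of the gene, 12.9 and 9.62 kb from its TSS and 2.70 kb apart. Lhx2, a factor of eye and cortex, had an mESC region of 614 bp (chr2:38340595-38341208) starting 1.31 kb inside the gene and no EpiLC region. Lhx1, Lhx5, Lhx8, Lhx9 and Lmx1a had none.

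The NK-like genes held 8 mESC and 11 EpiLC regions on 11 of 18 genes. En1, Emx1, Nkx2-1 and Nkx6-1 each had an mESC region that overlapped an EpiLC region. Nkx2-1, a determinant of thyroid, lung and ventral forebrain on chromosome 12 (56531935 to 56536908), had an mESC region of 1453 bp (chr12:56520217-56521669) and an EpiLC region of 1200 bp (chr12:56519977-56521176) that shared 960 bp, 15.2 kb from its TSS. The shared site of Nkx6-1, a pancreas and motor neuron factor on chromosome 5 (101659197 to 101664711), lay 48.3 kb upstream in intergenic DNA, close to the 50 kb limit. Its mESC region of 966 bp (chr5:101712994-101713959) was wholly inside the EpiLC region of 2400 bp (chr5:101712452-101714851). At En1, which maintains the midbrain and hindbrain border, an mESC region (chr1:120643659-120644847) and an EpiLC region (chr1:120644202-120645526) shared 646 bp, 41.2 kb downstream in an intron of 2610027F03Rik. At Emx1, a cortical factor, the mESC region of 353 bp (chr6:85232080-85232432) lay inside an EpiLC region of 2375 bp (chr6:85231027-85233401), 44.1 kb downstream in an intron of Sfxn5. A second EpiLC region of Emx1, 2200 bp (chr6:85222927-85225126), lay in the same gene.

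The other NK-like genes with regions had no overlap between tables. En2, the paralogue of En1, had an mESC region (chr5:28176276-28177061) 10.6 kb and an EpiLC region (chr5:28199127-28200001) 33.4 kb downstream. Msx2, a skull and limb factor, Nkx6-2, a factor of oligodendrocytes, and Dlx6, a factor of jaw and interneurons, each had 1 mESC region, 10.8 kb (chr13:53461106-53462001), 25.4 kb (chr7:139556976-139557387) and 37.6 kb (chr6:6825279-6825705) from the TSS. The Dlx6 region lay in an intron of the noncoding gene Dlx6os1. Dlx3, a factor of epidermis and placenta, had 2 EpiLC regions, 3050 bp at 13.2 kb upstream (chr11:95103827-95106876) and 475 bp at 6.56 kb downstream (chr11:95126677-95127151). Vax1, which patterns the optic stalk, had 2 EpiLC regions of 900 (chr19:59188802-59189701) and 1200 bp (chr19:59190152-59191351) beginning 18.8 and 20.1 kb upstream. Nkx2-5, a cardiac regulator, had 1 EpiLC region of 900 bp (chr17:26835752-26836651), 4.91 kb from its TSS. Dlx1, Dlx2, Dlx4, Dlx5, Emx2, Msx1 and Nkx2-2 had none.

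The Hox-like genes carried mESC regions on the gene itself. The longest of the 53 regions tied to these genes, 12564 bp, covered the whole of Gbx2, a factor of the anterior hindbrain that is also known as a LIF target in mESCs, on chromosome 1 (89927962 to 89931176). It ran from 89922754 to 89935317 and overlapped no EpiLC enhancer. An EpiLC region of 875 bp (chr1:89921802-89922676) ended 77 bp from its edge, 8.50 kb from the TSS, and another of 550 bp (chr1:89885802-89886351) lay 44.8 kb away in an intron of Agap1. Cdx1, a factor of the posterior axis, had an mESC region of 2227 bp (chr18:61034525-61036751) over its TSS. Cdx2, a factor of trophectoderm and hindgut, had one of 738 bp (chr5:147304041-147304778) in its own intron, 2.47 kb from the TSS. For Cdx1 and Cdx2 the nearest EpiLC enhancer of any gene lay 82.8 and 83.1 kb from the TSS. Gbx1 had no region.

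Of the SINE genes, Six4 had the most regions and was the only one of the 48 genes whose TSS lay in an EpiLC enhancer. Six4, a factor of muscle and sensory precursors on chromosome 12 (73100259 to 73113245), had EpiLC regions of 5075 bp (chr12:73109702-73114776) over its TSS, 2325 bp inside the gene and 9425 bp (chr12:73082352-73091776) 21.5 kb downstream. The 9425 bp region enclosed the single mESC region of 1131 bp (chr12:73085462-73086592). Six3, a forebrain and eye factor, had 2 mESC regions of 670 bp (chr17:85624884-85625553) and 507 bp (chr17:85646307-85646813), 4.05 and 25.5 kb from its TSS. Six2, which maintains nephron progenitors and lies 67.4 kb from Six3 by TSS, had 1 mESC region of 464 bp (chr17:85714278-85714741), 26.0 kb upstream. Neither had an EpiLC region within 50 kb, and the nearest lay 178.0 kb from Six3 and 110.6 kb from Six2. Six6, an eye and pituitary factor, had none.

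In the TALE class, Meis1 and Meis2, which encode DNA-binding partners of Hox proteins, had regions of both tables. Meis2 on chromosome 2 (115861264 to 116067444) had 3 EpiLC regions in its own interval. The longest, 2275 bp (chr2:116019702-116021976), lay 45.5 kb from the TSS, and another enclosed the only mESC region of the gene. At Meis1 the EpiLC region (1350 bp, chr11:19020052-19021401) lay 1.08 kb and the mESC region (650 bp, chr11:19025901-19026550) 6.93 kb upstream, without overlap. Irx6 on chromosome 8 (92674289 to 92680956) had an mESC region of 840 bp (chr8:92628656-92629495) inside an EpiLC region of 1675 bp (chr8:92628002-92629676), 44.6 kb upstream of its TSS. Irx2 had an mESC region of 674 bp (chr13:72629832-72630505) starting 1035 bp inside the gene. Irx1, Irx3, Irx4 and Irx5 had none. The Irx factors pattern neural tube, heart and limb, and these 6 genes form clusters on chromosomes 8 and 13 in which neighbouring members lay 316.5 to 665.1 kb apart.

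**Figure D4:**
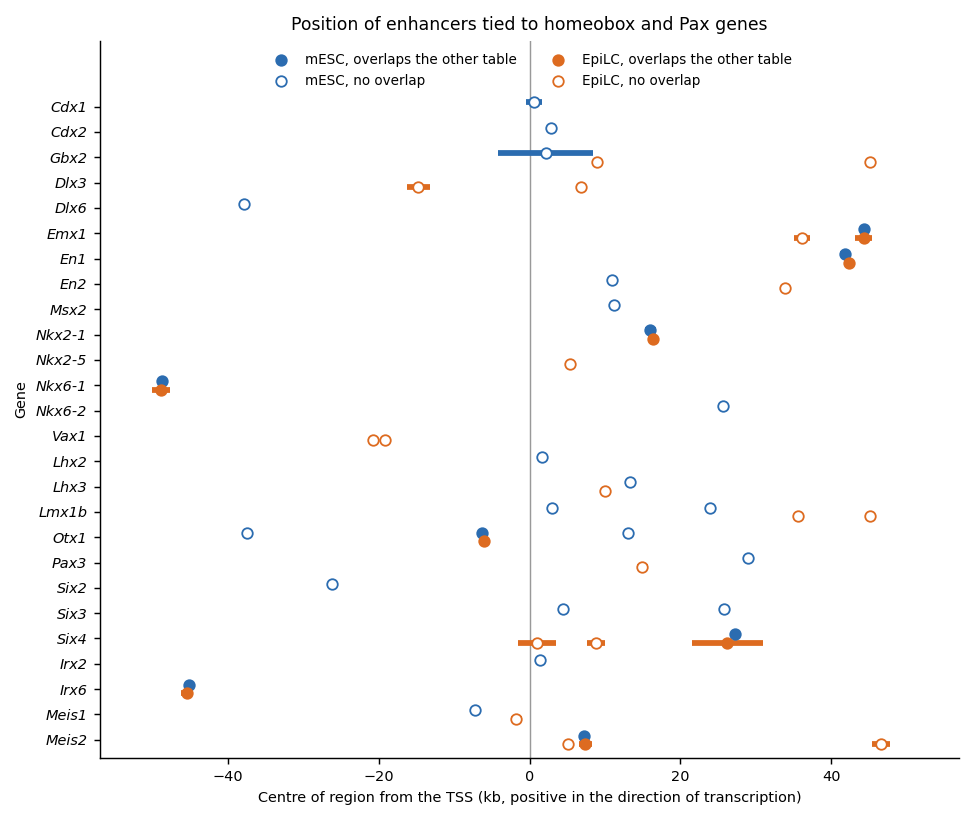
Centre of each region tied to one of the 26 genes with a region, in kb from the TSS (horizontal axis, positive in the direction of transcription), blue for mESC and orange for EpiLC; bars show the length of the region and filled points overlap a region of the other table. Filled pairs lie at 8 genes, and the bars at 0 are those of Cdx1, Gbx2 and Six4.

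How often the mESC and EpiLC regions of these genes met, set beside all tied enhancers, turned on the rule for overlap. With 1 shared base enough, of the 27 mESC regions 8 (29.6%) overlapped an EpiLC enhancer, against 46.9% of all mESC enhancers tied to a gene. Of the 26 EpiLC regions 8 (30.8%) overlapped an mESC enhancer, against 24.8% of all those tied to a gene. Of the 14 genes with regions of both kinds, 8 (57.1%) had overlapping ones, against 75.1% of the 2943 such genes in the whole table. The 6 without were Gbx2, Lhx3, Lmx1b, En2, Pax3 and Meis1. With all regions set to an equal width of 500 bp, 6 mESC regions (22.2%) overlapped against 26.5% of all tied, and 6 EpiLC regions (23.1%) against 12.6%. Where the shared bases had to be 50% of each region or more, 3 mESC regions (11.1%) overlapped against 9.57%, and 3 EpiLC regions (11.5%) against 4.43%. The lower mESC share was thus not seen under that rule, while the EpiLC share was above that of all tied regions under the 3 rules. The EpiLC regions of the 48 genes were wider (median 1262 bp) than their mESC regions (median 729 bp). Over all tied regions the gap was larger, with medians of 1875 bp (EpiLC) and 736 bp (mESC).

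The EpiLC regions of these genes lay away from promoters. Annotation at the centre used the TSSs of all GENCODE transcripts, which are more than those of the gene intervals. By it, 1 of 26 (3.85%) lay within 1 kb of a TSS, against 33.8% of all EpiLC enhancers tied to a gene. Introns held 12 and intergenic DNA 12. The median distance to the TSS was 17.3 kb against 8.01 kb for all tied EpiLC enhancers, and 10 of 26 (38.5%) lay beyond 25 kb against 21.4%. Of the mESC regions 4 of 27 (14.8%) lay at a promoter against 12.2%, and their median distance was 12.9 kb against 13.8 kb. Beyond 25 kb lay 11 of 27 (40.7%) against 28.7%. Most regions lay on the side of the TSS to which the gene is transcribed, 20 of 27 mESC regions and 19 of 26 EpiLC regions, against 2899 of 5373 and 6176 of 11613 over all tied regions.

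Some regions within 50 kb of these genes were tied to another TSS, and the 10 nearest such pairs involved 6 of the genes: Pax6, Nkx2-2, Lhx1, Dlx4, Six6 and Gbx1. Pax6, the eye and forebrain factor on chromosome 2 (105668896 to 105698410), has the TSS of Pax6os1 1.43 kb from its own. That TSS took 2 mESC and 3 EpiLC regions, the nearest of them 8.14 kb from the Pax6 TSS. An mESC region of 714 bp, 2.93 kb from the TSS of Nkx2-2, a ventral neural tube factor, went to 6430503K07Rik. Lhx1, a head organizer factor, had EpiLC regions at 11.2 and 13.9 kb that were tied to Aatf and Lhx1os. An EpiLC region 18.6 kb from Dlx4, a factor of the jaw arches, went to its neighbour Dlx3. EpiLC regions at 21.6 kb from Six6 and 24.2 kb from Gbx1 were nearest to 4930447C04Rik and Iqca1l. With TSSs of protein-coding genes only, a rule chosen after seeing the data, 26 of 48 genes had an mESC enhancer (54.2%, against 20.4% of protein-coding genes) and 20 an EpiLC enhancer (41.7% against 34.1%). The genes gained were Nkx2-2, Emx2 and Pax6 in the mESC table, and Irx5, Lhx1 and Pax6 in the EpiLC table.

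The distance limit also left regions just outside. The furthest regions counted lay 48.3 kb (mESC) and 47.7 kb (EpiLC) from the TSS of Nkx6-1. The nearest ones not counted were an mESC region of 6580 bp at 54.2 kb from Gbx2 and an EpiLC region of 3700 bp at 51.4 kb from Nkx6-2. In all, 32 mESC and 30 EpiLC regions had one of the 48 TSSs as their nearest but lay beyond 50 kb.

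The other homeobox and Pax genes outside Hox, 99 of a list of 104 that could be located, had a like share of genes with an mESC enhancer (39 genes, 39.4%) and with an EpiLC enhancer (30 genes, 30.3%). They carried 51 mESC and 69 EpiLC regions. Among those with most regions over both tables were Tgif1 (3 mESC and 6 EpiLC), a TGF-beta corepressor, Zfhx3 (2 and 7), a zinc finger homeodomain protein of neurons, and Gsx1 (3 and 4), a factor of ventral forebrain. Pou3f1, a POU factor of the early epiblast, had 0 mESC and 7 EpiLC regions. Pou2f3, a POU factor of epidermis and tuft cells, had 2 and 3. No gene of the 48 exceeded 3 regions in a table.

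The sequence of the regions was described over their central 300 bases, with 1 of the 27 mESC regions shorter than that. Median GC content was 47.7% in the mESC regions of the 48 genes against 45.7% in all tied mESC enhancers, and 51.5% against 50.0% in the EpiLC regions. Without promoter-centred regions it was 47.7% against 45.7% (mESC) and 51.3% against 48.3% (EpiLC). Except where stated, the motif shares below include promoter-centred regions. The homeodomain motif TAATTA, a sequence that many of these proteins can bind, was found in 7 of 27 mESC windows (25.9%) against 10.5% of all tied mESC windows, and in 3 of 26 EpiLC windows (11.5%) against 6.46%. The OTX motif was found in 7 mESC windows (25.9% against 13.7%) and 4 EpiLC windows (15.4% against 12.4%). Without promoter-centred regions each of these motifs was found in 5 of 23 mESC windows (21.7%). The shares of all tied mESC windows were then 10.6% (homeodomain) and 13.6% (OTX). Windows of the other homeobox and Pax genes held the homeodomain motif in 13.7% (mESC) and 8.70% (EpiLC), and the OTX motif in 7.84% and 2.90%. The octamer was found in 1 mESC window, at Six4, and in 1 EpiLC window, at Nkx2-1 (3.70% against 8.11%, and 3.85% against 2.94%). The SOX core was found in 5 mESC windows (18.5% against 25.5%) and 4 EpiLC windows (15.4% against 13.5%). The ESRRB motif, the KLF motif and the joined octamer and SOX motif were found in none of the 53 windows, against 2.72%, 5.83% and 0.838% of all tied mESC windows and 1.21%, 3.49% and 0.198% of all tied EpiLC windows. These letters were counted as a description, and at 27 and 26 windows 1 window is worth 3.70 and 3.85 percentage points.

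The promoters that could be matched to these genes had, by median, a higher ratio of observed to expected CpG dinucleotides than those of genes at large. RefSeq promoter sequences of build GRCm38.p6, from 250 bases before to 50 after the TSS, were matched for 34 of the 48 genes. The median CpG content, observed over that expected from the bases, was 0.757 against 0.586 in 17686 promoters of all genes. In 67 promoters of the other homeobox and Pax genes it was 0.679. Promoters with a ratio of at least 0.6 and a GC content of at least 55% made up 22 of 34 (64.7%). The share was 41.9% over all genes and 52.2% in the other homeobox and Pax genes, with both limits set after the data were seen. Among the 34 the highest ratio was 1.18 at Nkx6-1 and the lowest 0.241 at Lhx8, a factor of cholinergic neurons. Among genes with an mESC enhancer 12 of 17 promoters met both limits, and among those without 10 of 17. For EpiLC enhancers the counts were 6 of 12 and 16 of 22. The matched promoter of Lhx9 lay 5135 bp from the TSS of the gene table. The CCAAT box was found in 19 of 34 promoters (55.9% against 38.8%) and the TATA box in 2 (5.88% against 13.0%).

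**Figure D5:**
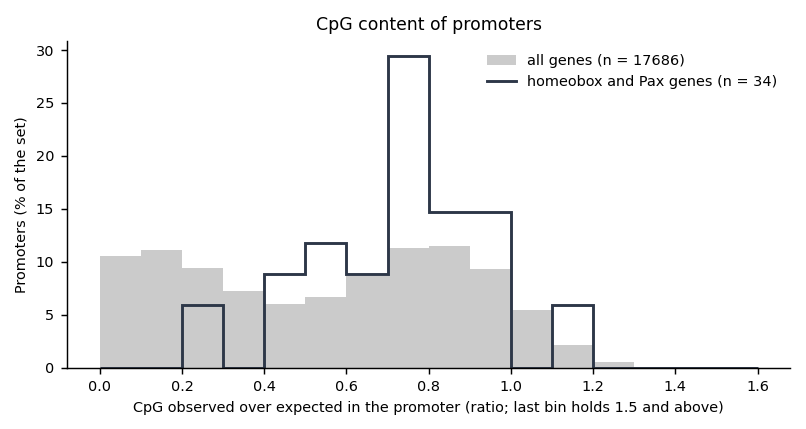
CpG observed over expected in promoters (horizontal axis, ratio in bins of 0.1) as a share of each set (vertical axis, %), with 34 of the 48 genes as an outline and 17686 promoters of all genes in grey. The outline peaks between 0.7 and 0.8 and has no promoter below 0.2, where the grey bars hold 10.6% and 11.1%.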

How the data were processed

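By their labels the 52 libraries make 34 groups, 16 with 1 library and 18 with 2. None enters a value here: the 3 deposited tables hold mm10 coordinates only, so the planned test of signal per library was not run. Per the series' design text, the authors lifted published mESC and EpiLC enhancers over to mm10 and took the genes from a non-redundant UCSC set; no source used here names the liftover tool. Trimmomatic 0.38, Bowtie2 2.3.4.1 and bedtools 2.29.2 appear in the submitters' processing notes, without their role.

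Coordinates are printed 1-based. Gene starts count from 0 (12038 exact RefSeq matches with start plus 1, 329 without), and enhancer starts were taken likewise, which leaves those uncertain by 1 bp. Of 24402 gene rows, 120 duplicates and 19 others off a chromosome were left out. Rows were named by exact match to RefSeq GRCm38.p6 or GENCODE M21, or by a shared length of at least 0.8. The TSS is the 5′ end of the interval. Ties and overlaps (at least 1 bp) were computed in Python 3.11.15 (pandas 2.3.3, pysam 0.24.0) and tested on simulated data. In the simulated data no region had more than 1 TSS within 50 kb, so a choice between TSSs that close was not tested. Members, gene lists and motifs were chosen with earlier results of these data known, so counts stand beside those of all genes and no test was run. Alternatives changed the distance limit, the tie rule, the genes and regions kept and the overlap. By the naming rule every gene with a region is named, with coordinates for the 2 longest regions per gene and table, and other genes only from the 10 nearest regions tied elsewhere and the 6 other homeobox genes with most regions. Of these, 1 gene of the other list, and the sequence and position of 1 shared site, are not reported here.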

Additional observations from a re-analysis of the deposited data

How the results depend on the processing

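Of 34 alternative counts for the 6 main ones, 26 stayed within 1.5 times the main count. Within 20 kb, 14 genes had an mESC and 11 an EpiLC enhancer, on 15 and 14 regions. Within 100 kb, 41 mESC and 43 EpiLC regions were tied. With at least 50% of both regions shared, 3 mESC and 3 EpiLC regions of these genes overlapped, against 9.57% and 4.43% of all tied regions. In each of these settings fewer or more bases qualified by construction. None of the 27 mESC regions belonged to the first 231 rows of the mESC table, so leaving those out changed no count of these genes. No paired analysis was possible because the tables hold no value per library. A table of regions carries no depth.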

Other observations

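The rows of the gene table are in an order that is neither by chromosome nor by name, and the sources used here do not say what set it. Of the 48 genes 22 (45.8%) stood in the first 10% of rows, against 9.92% of all genes kept. Their median row was 2544 of 24402, from 261 (Dlx1) to 18888 (Lhx8). Of 39 Hox genes 31 (79.5%) stood in that first part, as did 31 of the 99 other homeobox and Pax genes (31.3%). Whether the order of rows follows a measurement is not known, and no result above uses it.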
